A study of Mus musculus with 9 samples.

Results

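Nucleolar ribosome biogenesis genes encode the factors that transcribe ribosomal RNA, trim and modify it, and fold it with ribosomal proteins into the precursors of the small and large ribosomal subunits. The 40 genes described here were chosen by function, as rRNA transcription, processing and assembly factors, and were found by symbol in the deposited count table, 1 row each, among 20627 features. All 40 had enough counts to be tested. They were followed across 3 groups of 3 libraries of RAW264.7 cells, a mouse macrophage-like line of tumour origin: NC, the control, for which neither glucose concentration nor incubation time is given; HG, incubated for 6 h with 35 mmol/l glucose; and HG-SIG, incubated for 6 h with the same glucose concentration and sitagliptin phosphate, an inhibitor of dipeptidyl peptidase 4 used against type 2 diabetes. All groups were the same cell line, none was an osmotic control or received sitagliptin without added glucose, and the labels give 1 batch for all libraries.

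Ribosome production starts in the nucleolus. RNA polymerase I copies the rRNA genes into a long precursor, small nucleolar ribonucleoproteins (snoRNPs) guide the chemical modification of that precursor, and successive assembly factors cleave it and release pre-ribosomes to the cytoplasm. The pathway is known for its cost to the cell and for its coupling to growth, and its genes are well-known targets of the transcription factor MYC. The libraries were made from polyadenylated RNA, so the values are messenger RNA levels of the factors, and rRNA itself was not measured.

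Library totals ranged from 23285821 to 31571578 counts. All 11 macrophage markers examined had enough counts to be tested, with a summed level of 11620 to 12070 CPM in NC, 10470 to 11270 in HG and 5480 to 5585 in HG-SIG (CPM, counts scaled to a library of fixed size, here by the trimmed mean of M-values, TMM). Of epithelial markers 3 of 5 were in the table and of lymphocyte markers 4 of 7, and neither list had a gene above 0.0825 CPM. Of 6 fibroblast markers 4 were in the table, the highest at 0.669 CPM. All 11 macrophage markers were lower in HG-SIG than in HG, with a median log2 fold change of -0.72, and 10 of them by library totals (-0.56). The part of the drop in macrophage markers in the HG-SIG values below was not tested, and in bulk RNA a change in the mix of cell states and a change in RNA per cell cannot be told apart. Whether the 3 libraries of a group came from different dishes of cells is not in the labels. The p-values therefore rest on library-to-library spread alone, which may be technical.

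Levels per exon length were compared in NC as length-normalised transcript abundance (TPM). Npm1 (ENSMUSG00000057113, chromosome 11, 33152287 to 33163206, mm10), the gene of the abundant histone and pre-ribosome chaperone nucleophosmin, was the most abundant member at a level of 3653 TPM. Ncl (ENSMUSG00000026234, chromosome 1, 86344719 to 86359400), which encodes the rRNA-binding protein nucleolin, followed with a level of 888 TPM, and the box H/ACA protein gene Nhp2 with 458 TPM. The length used joins all annotated exons of a gene and may exceed that of its main transcript. It was 10188 bases for Ncl and 2665 for Npm1. Without division by length the 2 genes were close in NC, with means of 2832 CPM for Ncl and 3048 for Npm1. At the other end by TPM stood Wdr12, at 35.1 TPM with a joined length of 11955 bases, and Polr1b, at 36.3 TPM. The place of Wdr12 depended on that length, since its mean in NC was 131 CPM. By CPM the lowest member in NC was Polr1c, with a mean of 49.5. A name search found 1 other gene named after Fbl and 1 named after Gnl3 in the table with counts of its own. For Gnl3 this was its relative Gnl3l, which is described below. The search did not separate pseudogenes from relatives and could not find pseudogenes with unrelated names. Whether reads of any member were split with a similar gene was not tested. Of the 40 members, only Noc2l shared more than 10% of its exon length with another listed gene (20.9%, with Samd11 on the opposite strand), and Samd11 had 37 counts in all 9 libraries against 52096 for Noc2l.

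The first comparison, of HG with NC, addresses the response to high glucose. A modest set of biogenesis genes rose: 11 of 40 were higher in HG, 2 were lower and 27 did not pass the test (edgeR's quasi-likelihood test, Benjamini-Hochberg adjusted p under 0.05 over all 13311 genes tested). That is 27.5% higher and 5% lower, beside 14.3% and 15.2% of all genes tested. The changes were small, from -0.19 for Tcof1 to 0.28 for Polr1b on the log2 scale, with a median of 0.06 against 0.00 over all genes tested. All HG libraries lay above all NC libraries for 16 members and below them for 4, beside 20.8% of all genes in either direction. The 11 higher members were Polr1b, Ubtf, Dkc1, Utp4, Wdr43, Noc4l, Wdr12, Rrp1b, Noc2l, Gnl3 and Nolc1. All 11 were among the 16 called when counts were scaled by library totals alone. Library totals raised the fold changes of all genes by nearly the same amount, so this overlap was largely fixed in advance. Those totals gave 16 higher and 1 lower, beside 18.6% and 13.0% of all genes tested. DESeq2 gave 12 and 2, beside 11.9% and 14.1%, and limma on log2(TPM + 1) 17 and 1, beside 19.6% and 13.5%. Without NC replicate 1 only 5 members remained higher, namely Polr1b, Dkc1, Wdr43, Noc4l and Nolc1.

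The second comparison, of HG-SIG with HG, addresses the response to sitagliptin in high glucose. On the TMM scale most biogenesis genes fell: 2 of 40 were higher in HG-SIG, 31 were lower and 7 did not pass the test. The 77.5% that were lower stand beside 26.8% of all genes tested, and the 5% that were higher beside 25.7%. Fold changes ran from -0.45 for Gar1 to 0.19 for Rrn3 on the log2 scale, with a median of -0.22 against 0.01 over all genes tested, and 0 members changed by more than 1, the fold criterion that the series states. The libraries of HG-SIG lay below those of HG without overlap for 32 members and above them for 2, beside 28.8% and 29.9% of all genes tested.

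The size of this drop depends on the scaling, and TMM sets it relative to the average gene. TMM factors were 1.08 to 1.09 in HG-SIG, 0.961 to 0.977 in HG and 0.948 to 0.955 in NC. Scaled by library totals alone, the median of all genes tested in HG-SIG against HG moved from 0.01 to 0.17. That of the members moved from -0.22 to -0.05. This change of scaling shifts all genes by nearly the same amount. The gap of 0.22 on the log2 scale between the members and the average gene therefore could not change, and its agreement is no separate test. By library totals 15 members were lower and 5 higher, beside 13.7% and 45.8% of all genes tested. Those 15 were all among the 31 called on the TMM scale, an overlap that the common upward shift largely fixes in advance. DESeq2 gave 31 lower and 1 higher, beside 25.7% and 21.8% of all genes tested, and limma on log2(TPM + 1) gave 14 lower and 9 higher, beside 12.1% and 54.7%. The share of all counts taken by the 40 members was 1.17%, 1.20% and 1.15% in the NC libraries, 1.24%, 1.25% and 1.21% in HG and 1.21%, 1.23% and 1.17% in HG-SIG. This share is a scaling by library totals. By it the HG libraries lay above those of NC, and the HG-SIG libraries overlapped HG. On the TMM scale the sum was 12120 to 12580 CPM in NC, 12390 to 13040 in HG and 10730 to 11410 in HG-SIG. There NC and HG overlapped, and HG-SIG lay below both. Most of the sum came from the 4 general nucleolar factors, Npm1 and Ncl among them, whose share was 0.651% to 0.686% in HG and 0.645% to 0.704% in HG-SIG. In each of the other 5 roles every HG-SIG library had a lower share than every HG library, for example 0.197% to 0.199% against 0.212% to 0.216% for the large-subunit factors and 0.0909% to 0.0962% against 0.101% to 0.102% for box C/D proteins.

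**Figure D1:**
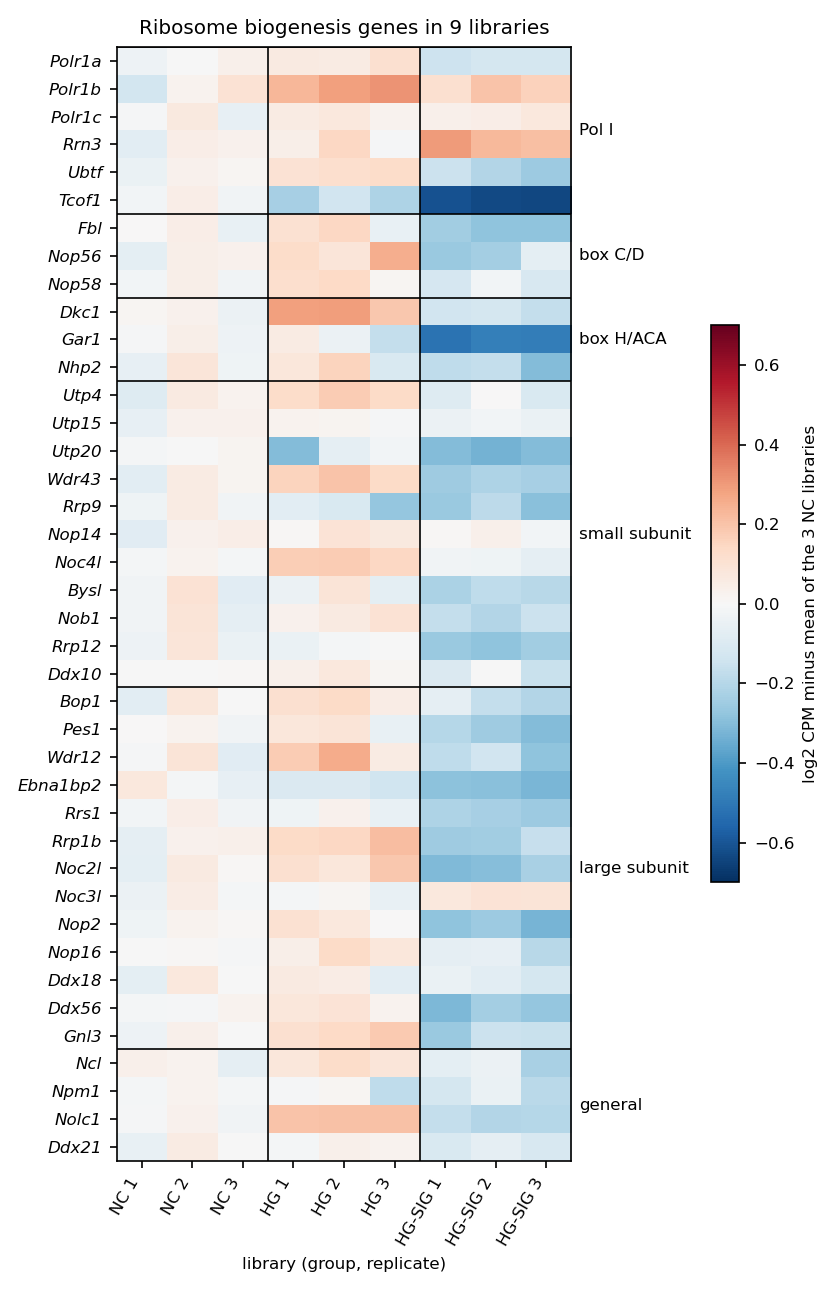
Heat map of the 40 members (rows, grouped by role) in the 9 libraries (columns); colour gives log2 CPM on the TMM scale minus the mean of the 3 NC libraries of that gene. Red cells in HG mark genes such as Polr1b, Dkc1 and Nolc1, and blue cells fill most of the HG-SIG columns, with Tcof1 and Gar1 darkest and Rrn3 red; by library totals the median of the members in HG-SIG against NC was 0.00.

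HG-SIG against NC gave 2 members higher, Polr1b and Rrn3, and 26 lower on the TMM scale, beside 29.9% and 28.7% of all genes tested, with a median log2 fold change of -0.19 against 0.02 over all genes. This direction turned with the scaling: by library totals alone 12 were higher and 5 lower, beside 51.0% and 15.9% of all genes tested, with a median of 0.00 while that of all genes was 0.21. With limma on log2(TPM + 1) 17 were higher and 2 lower, beside 58.6% and 14.5%, and DESeq2 gave 2 higher and 29 lower, beside 25.6% and 28.2%. On the TMM scale all HG-SIG libraries lay above NC for 3 members and below for 28, beside 34.2% and 31.7% of all genes tested. Tcof1 and Gar1 were the 2 members called lower than NC under every alternative tried, and Rrn3 was the only one called higher under every alternative. The 3 comparisons share libraries, HG serving in the first as the treated group and in the second as the reference, so their counts are not independent of each other.

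**Figure D2:**
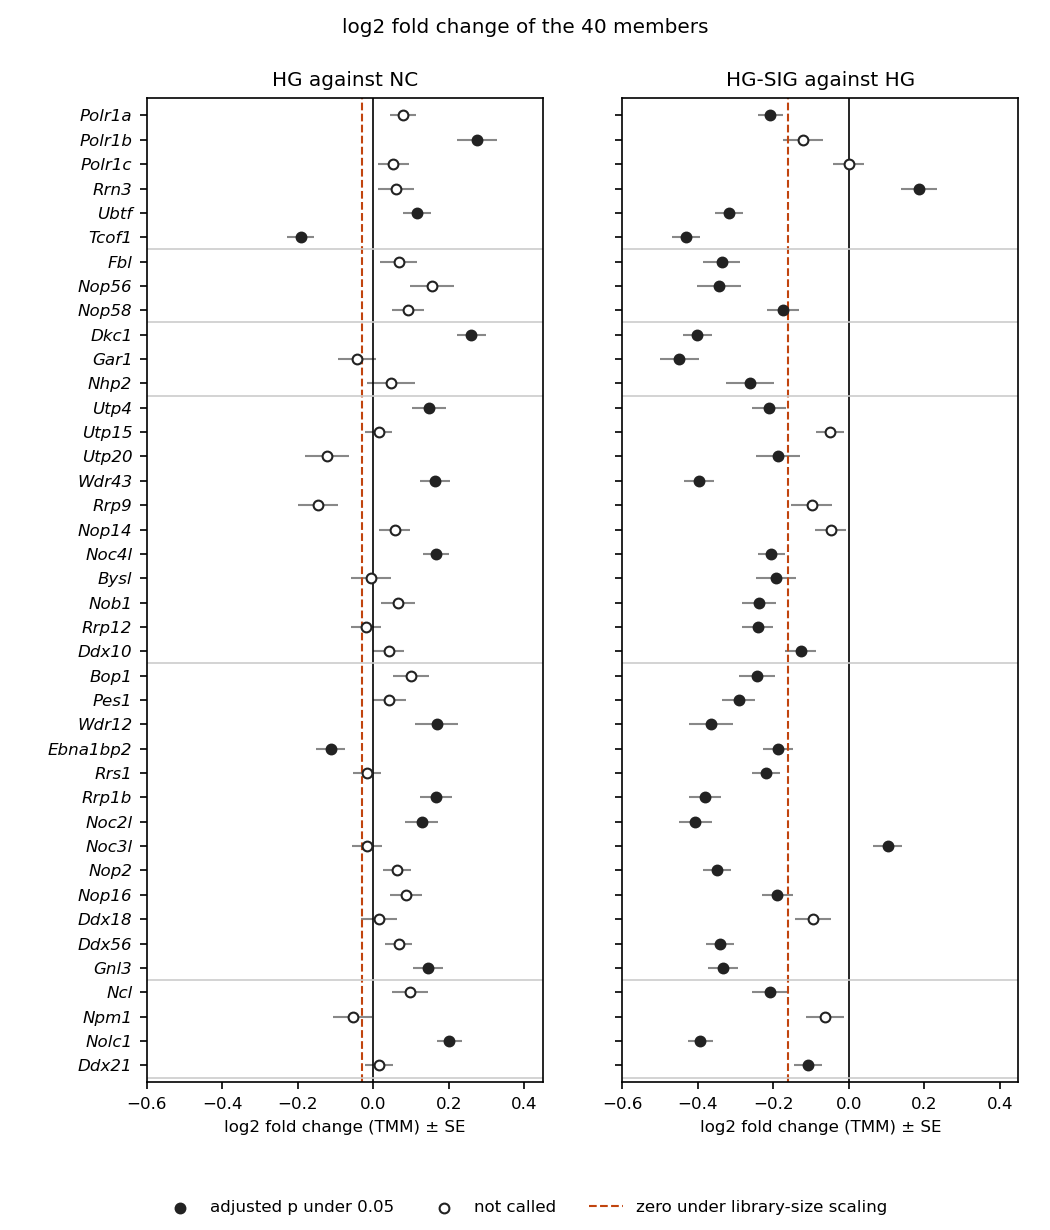
Points give the log2 fold change of each member on the TMM scale with its standard error (whiskers) in HG against NC (left) and HG-SIG against HG (right); filled points had an adjusted p under 0.05, and the dashed line marks where a member would lie at 0 if counts were scaled by library totals alone. In the left panel 11 filled points lie to the right of 0, and in the right panel 31 lie to the left, 15 of which were also called by library totals.

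The 6 members that act in transcription of rRNA genes by RNA polymerase I gave calls in both directions: 2 rose and 1 fell in HG against NC, beside 14.3% and 15.2% of all genes tested, and 1 rose and 3 fell in HG-SIG against HG, beside 25.7% and 26.8%, with a median for the second of -0.16 on the TMM scale and 0.04 with limma on TPM. The catalytic subunit gene Polr1a had 158, 162 and 167 CPM in NC, 170, 169 and 175 in HG and 147, 149 and 149 in HG-SIG. All HG libraries lay above NC, but the fold change of 0.08 ± 0.03 (SE) missed the threshold (adjusted p = 0.106). In HG-SIG the gene was lower than in HG (-0.21 ± 0.03, adjusted p = 2.5e-04), a call that was lost with library totals. Polr1b (ENSMUSG00000027395, chromosome 2, 129100995 to 129126594), which encodes the second largest subunit, was measured at 60.3, 66.8 and 70.8 CPM in NC, 77.3, 80.3 and 81.9 in HG and 71.2, 75.5 and 73.6 in HG-SIG. It rose in HG by 0.28 ± 0.05, the largest rise of any member (adjusted p = 0.00185), and in HG-SIG it had a fold change of -0.12 ± 0.05 against HG (adjusted p = 0.0735). The shared polymerase I and III subunit gene Polr1c stayed between 47.6 and 52.2 CPM in all 9 libraries and was called in none of the 3 comparisons.

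Rrn3 (ENSMUSG00000022682, chromosome 16, 13780708 to 13814839) encodes TIF-IA, the factor that makes polymerase I competent to start, and it went the other way from most members. Its levels were 82.0, 89.0 and 88.0 CPM in NC, 88.8, 95.3 and 85.7 in HG and 106, 101 and 99.8 in HG-SIG. The NC and HG libraries overlapped (0.06 ± 0.05, adjusted p = 0.389), and every HG-SIG library lay above both (0.19 ± 0.05 against HG, adjusted p = 0.0056; 0.25 ± 0.05 against NC, adjusted p = 6.8e-04). Ubtf, whose product UBF binds rRNA gene promoters and keeps the genes open, had 230, 243 and 240 CPM in NC, 255, 258 and 259 in HG and 214, 206 and 199 in HG-SIG. The 3 groups did not overlap, with fold changes of 0.12 ± 0.04 in HG against NC (adjusted p = 0.0327) and -0.32 ± 0.04 in HG-SIG against HG (adjusted p = 1.7e-05). The first of these was lost when any NC or HG library other than NC replicate 2 was left out (adjusted p = 0.057 to 0.134), and the second held under every alternative.

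Tcof1 (ENSMUSG00000024613) encodes treacle, a nucleolar scaffold for polymerase I and UBF that is mutated in Treacher Collins syndrome. It stepped down from 223, 233 and 222 CPM in NC to 192, 206 and 194 in HG and 148, 146 and 145 in HG-SIG, with no overlap between any groups. The falls were 0.19 ± 0.04 on the log2 scale in HG (adjusted p = 0.00163) and a further 0.43 ± 0.04 in HG-SIG (adjusted p = 1.1e-06), and from NC to HG-SIG the level fell by 35.2% on the TMM scale (log2 fold change -0.63 ± 0.04, adjusted p = 1.8e-08). On the TMM scale it was the only member whose fold change passed 0.5 in any of the 3 comparisons; by library totals it was -0.44 in HG-SIG against NC and with limma on TPM -0.39. Within a library the ratio of Rrn3 to Tcof1, which no scaling changes, was -1.44, -1.39 and -1.33 on the log2 scale in NC, -1.12, -1.11 and -1.18 in HG and -0.48, -0.53 and -0.54 in HG-SIG. This pair was chosen after its values were seen.

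**Figure D3:**
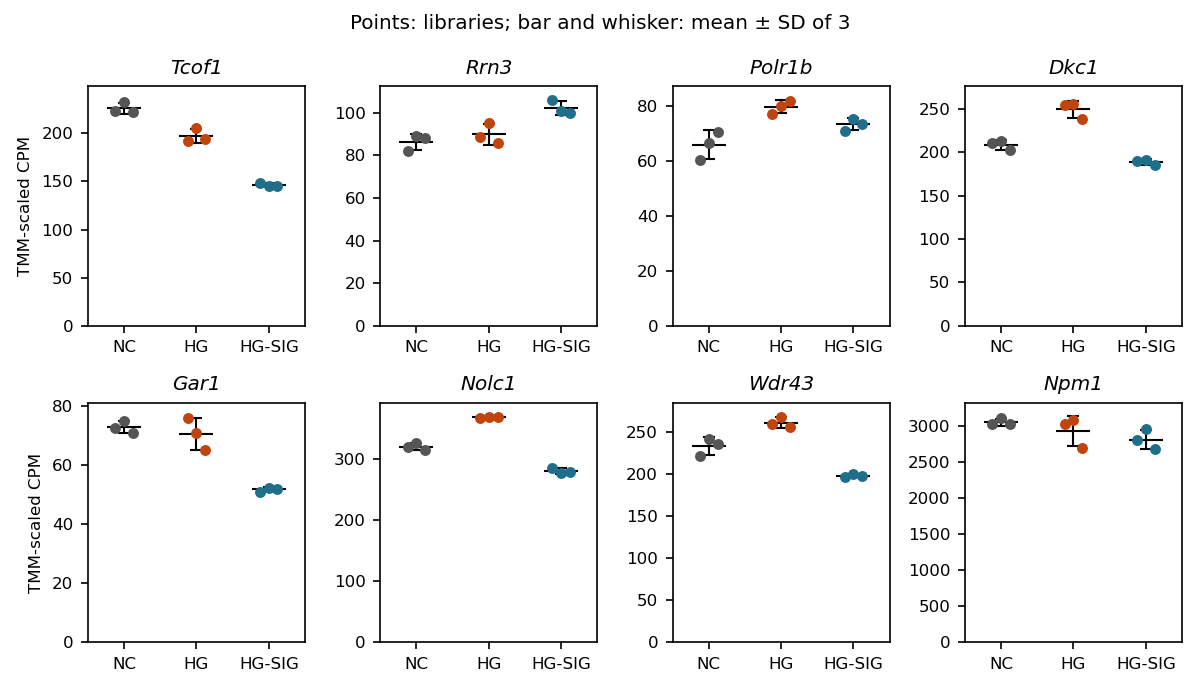
TMM-scaled CPM of 8 members in each library (points) with the mean and SD of the 3 libraries of a group (bar and whisker), on axes that start at 0. Tcof1 steps down from NC to HG to HG-SIG, Rrn3 is highest in HG-SIG, Dkc1, Nolc1 and Wdr43 are highest in HG and lowest in HG-SIG, and the groups overlap for Npm1 except between NC and HG-SIG.

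The core proteins of box C/D snoRNPs guide and carry out 2′-O-methylation of rRNA. The methyltransferase fibrillarin, from Fbl, had 262, 270 and 252 CPM in NC, 281, 288 and 252 in HG and 221, 215 and 214 in HG-SIG. Groups NC and HG overlapped (0.07 ± 0.05, adjusted p = 0.337), and HG-SIG lay below both (-0.34 ± 0.05 against HG, adjusted p = 9.4e-05). Its scaffold partner Nop56 had 390, 422 and 418 CPM in NC, 448, 434 and 490 in HG and 342, 347 and 391 in HG-SIG. The HG libraries stood highest, with a fold change of 0.16 ± 0.06 against NC that missed the threshold (adjusted p = 0.0617) and passed it by library totals (adjusted p = 0.0335), and HG-SIG was lower than HG by 0.34 ± 0.06 on the log2 scale (adjusted p = 3.3e-04). Nop58, the other scaffold protein gene, moved least of the 3 between HG and HG-SIG, from 295, 307 and 293 CPM in NC to 324, 329 and 301 in HG and 275, 294 and 276 in HG-SIG. Its HG-SIG libraries lay below those of HG (-0.17 ± 0.04, adjusted p = 0.00455) and overlapped NC. Library totals kept the calls of Fbl and Nop56 and not that of Nop58, and limma on TPM kept only that of Fbl.

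Box H/ACA snoRNPs convert uridine to pseudouridine and share proteins with telomerase. Dkc1 (ENSMUSG00000031403, chromosome X, 75095854 to 75109777), the pseudouridine synthase gene mutated in X-linked dyskeratosis congenita, had 210, 212 and 202 CPM in NC, 254, 255 and 238 in HG and 190, 191 and 185 in HG-SIG. The 3 groups did not overlap: Dkc1 rose by 0.26 ± 0.04 in HG (adjusted p = 2.4e-04) and was lower in HG-SIG than in HG by 0.40 ± 0.04 on the log2 scale (adjusted p = 2.9e-06). Gar1 (ENSMUSG00000028010, chromosome 3, 129824912 to 129831396), which encodes the protein that completes the mature particle, had 72.7, 75.2 and 71.2 CPM in NC, 76.0, 71.0 and 65.1 in HG and 51.1, 52.4 and 52.1 in HG-SIG. It was level between NC and HG, whose libraries overlapped (-0.04 ± 0.05, adjusted p = 0.569), and then showed the largest drop of any member, -0.45 ± 0.05, a change of -26.8%, in HG-SIG against HG (adjusted p = 1.34e-05). The third protein, Nhp2, had 158, 174 and 161 CPM in NC, 173, 183 and 152 in HG and 145, 146 and 133 in HG-SIG, lower in HG-SIG than in HG (-0.26 ± 0.06, adjusted p = 0.00384) though not by library totals. All 3 were thus lower in HG-SIG than in HG on the TMM scale, with a median of -0.40, and by library totals the median was -0.24. The log2 ratio of Gar1 to Dkc1 within a library, a pair chosen after its values were seen, was -1.53, -1.50 and -1.51 in NC, -1.74, -1.85 and -1.87 in HG and -1.89, -1.87 and -1.83 in HG-SIG.

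Of the 11 members that process and assemble the small subunit, 3 (27.3%) rose and 0 fell in HG against NC, beside 14.3% and 15.2% of all genes tested. In HG-SIG against HG 0 rose and 8 (72.7%) fell, beside 25.7% and 26.8%. The medians were 0.04 and -0.19 on the TMM scale. By library totals 2 (18.2%) rose and 1 (9.09%) fell in HG-SIG, beside 45.8% and 13.7% of all genes tested, with a median of -0.03 that lay 0.20 below that of all genes, and with limma on TPM the median was 0.01. The one that kept its fall was Wdr43 (ENSMUSG00000041057, chromosome 17, 71615895 to 71659031), whose product belongs to the early pre-rRNA complex t-UTP. It had 221, 242 and 236 CPM in NC, 259, 268 and 255 in HG and 196, 200 and 198 in HG-SIG. The 3 groups were separate, with a rise of 0.16 ± 0.04 in HG (adjusted p = 0.00698) and a drop in HG-SIG (-0.40 ± 0.04, adjusted p = 3.7e-06). Noc4l, a nucleolar complex protein gene, had 60.7, 62.1 and 60.6 CPM in NC, 68.9, 69.2 and 67.5 in HG and 60.1, 59.9 and 58.4 in HG-SIG. It rose in HG by 0.17 ± 0.03 (adjusted p = 0.00302), and HG-SIG was near NC on the TMM scale (-0.04 ± 0.03, adjusted p = 0.354) and turned to 0.15 above it by library totals.

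The late small-subunit factor genes Bysl and Rrp12 had libraries that overlapped between NC and HG. Bysl, a factor of late pre-40S maturation, had 68.7, 74.7 and 66.1 CPM in NC, 67.7, 74.2 and 66.6 in HG and 59.8, 61.6 and 60.9 in HG-SIG. Its exons overlap those of the cyclin gene Ccnd3 on the opposite strand over 9.37% of their length, and no label says whether counting used strand. Rrp12, which helps export pre-ribosomes, had 90.2, 98.0 and 89.7 CPM in NC, 89.7, 91.9 and 92.4 in HG and 77.2, 76.1 and 78.3 in HG-SIG. Both were lower in HG-SIG than in HG on the TMM scale (-0.19 ± 0.05, adjusted p = 0.00784, and -0.24 ± 0.04, adjusted p = 3.0e-04), Bysl turning to 0.01 with limma on TPM. Of the other small-subunit members, the t-UTP gene Utp4 rose in HG (0.15 ± 0.045, adjusted p = 0.0265), a call lost without NC replicate 1 or HG replicate 2. Utp4 (-0.21), the large scaffold gene Utp20 (-0.19), the endonuclease gene Nob1 (-0.24) and the helicase gene Ddx10 (-0.13) fell in HG-SIG on the TMM scale, and none of these was called by library totals. Utp15, Nop14 and the U3 snoRNP gene Rrp9 were not called in HG-SIG against HG.

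The 13 large-subunit factors gave 4 (30.8%) higher and 1 (7.69%) lower in HG against NC, beside 14.3% and 15.2% of all genes tested. In HG-SIG against HG 1 (7.69%) was higher and 11 (84.6%) lower, beside 25.7% and 26.8%. The medians were 0.07 and -0.29 on the TMM scale. By library totals the second was -0.13, and 7 (53.8%) were lower, beside 13.7% of all genes tested. Bop1, Pes1 and Wdr12 encode the 3 proteins of the PeBoW complex, which matures the large-subunit rRNAs. Bop1 had 130, 145 and 137 CPM in NC, 148, 151 and 142 in HG and 132, 122 and 120 in HG-SIG, with overlap between NC and HG (0.10 ± 0.05, adjusted p = 0.144) and lower values in HG-SIG (-0.24 ± 0.05, adjusted p = 0.001). Wdr12 had 130, 140 and 124 CPM in NC, 148, 157 and 136 in HG and 116, 119 and 108 in HG-SIG. It was called higher in HG (0.17 ± 0.06, adjusted p = 0.0454) although its NC and HG libraries overlapped, and the call was lost without NC replicate 1, NC replicate 3, HG replicate 1 or HG replicate 2 (adjusted p = 0.0995 to 0.181). All 3 PeBoW genes were lower in HG-SIG than in HG, by -0.29 for Pes1 and -0.36 for Wdr12, and these 2 calls, unlike that of Bop1, held by library totals.

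Rrp1b, a large-subunit factor that also binds chromatin, had 107, 115 and 115 CPM in NC, 123, 124 and 130 in HG and 94.6, 94.9 and 101 in HG-SIG. The groups were separate, at 0.17 ± 0.04 in HG (adjusted p = 0.00952, and 0.051 without NC replicate 1) and -0.38 ± 0.04 in HG-SIG against HG (adjusted p = 9.2e-06). Noc2l, a nucleolar complex protein also known as a histone acetyltransferase inhibitor, had 200, 220 and 212 CPM in NC, 228, 223 and 240 in HG and 170, 171 and 180 in HG-SIG. It had the largest drop of the large-subunit genes (-0.41 ± 0.04, adjusted p = 7.7e-06), after a rise in HG (0.13 ± 0.04, adjusted p = 0.043) that was lost without NC replicate 1, NC replicate 3, HG replicate 1 or HG replicate 3. Its partner Noc3l was the one large-subunit gene higher in HG-SIG, from 51.1, 52.1 and 49.6 CPM in HG to 54.2, 55.1 and 54.9 (0.10 ± 0.04, adjusted p = 0.0404), and it was not called by DESeq2, without the low-count filter or when HG replicate 1 or 3 or any HG-SIG library was left out.

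Nucleostemin, from Gnl3, a GTPase of stem and tumour cells, rose in HG (0.15 ± 0.04, adjusted p = 0.0149, and 0.0676 without NC replicate 1) and was lower in HG-SIG (-0.33 ± 0.04). The rRNA methyltransferase gene Nop2 (-0.35) and the helicase gene Ddx56 (-0.34) were lower in HG-SIG as well, and these 3 calls held under every alternative. Ebna1bp2 was called lower in HG (-0.11 ± 0.04, adjusted p = 0.0435), a call that library totals and the loss of any NC or HG library other than NC replicate 3 removed. In HG-SIG against HG, Ebna1bp2 (-0.19), the 5S RNP assembly gene Rrs1 (-0.22) and Nop16 (-0.19) were lower on the TMM scale and not by library totals, and the helicase gene Ddx18 was not called (-0.10 ± 0.05, adjusted p = 0.109).

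The other 4 members serve the nucleolus more widely. Nolc1 (ENSMUSG00000015176, chromosome 19, 46075863 to 46085530) encodes Nopp140, a chaperone of both kinds of snoRNP. It had 318, 326 and 314 CPM in NC, 366, 368 and 368 in HG and 284, 277 and 278 in HG-SIG. With such close replicates the 3 groups were far apart, by 0.20 ± 0.03 in HG (adjusted p = 4.2e-04) and -0.39 ± 0.03 in HG-SIG against HG (adjusted p = 6.8e-07), and both calls held under every alternative. Ncl had 2906, 2876 and 2715 CPM in NC, 2991, 3092 and 3006 in HG and 2697, 2749 and 2423 in HG-SIG. The HG libraries lay above both other groups, which overlapped each other. The rise in HG missed the threshold (0.10 ± 0.05, adjusted p = 0.152, and 0.0497 by library totals), and the drop in HG-SIG passed it (-0.21 ± 0.05, adjusted p = 0.00284) but not by library totals.

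Npm1 had 3023, 3101 and 3020 CPM in NC, 3028, 3077 and 2696 in HG and 2800, 2948 and 2677 in HG-SIG. HG replicate 3 lay below the other HG libraries and among those of HG-SIG. In the main edgeR fit none of the 3 comparisons was called for this gene (-0.06 ± 0.05 in HG-SIG against HG, adjusted p = 0.323). Against NC all HG-SIG libraries of Npm1 were lower (-0.12 ± 0.05, adjusted p = 0.0638). DESeq2, the fit of Ensembl features only and the replicate block called that difference, while by library totals its sign turned. Without HG replicate 3 Npm1 was called lower in HG-SIG than in HG (adjusted p = 0.037). The RNA helicase gene Ddx21, which coordinates polymerase I transcription with rRNA processing, was level in HG (0.02 ± 0.04, adjusted p = 0.792) and lower in HG-SIG on the TMM scale (-0.11 ± 0.04, adjusted p = 0.0267), a call lost when HG replicate 2 or 3 or HG-SIG replicate 1 or 3 was left out and turned to 0.05 by library totals.

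The rest of the pathway was read from a list of 107 further ribosome biogenesis genes in the table, all tested. Of these, 19 (17.8%) were called higher in HG than in NC and 5 (4.67%) lower, beside 14.3% and 15.2% of all genes tested (median 0.03). In HG-SIG against HG 5 (4.67%) rose, 54 (50.5%) fell and 48 did not pass on the TMM scale, beside 25.7% and 26.8% of all genes. The median of -0.11 became 0.05 by library totals, where 33 (30.8%) rose and 19 (17.8%) fell, beside 45.8% and 13.7% of all genes. It lay 0.12 below that of all genes, a gap that this change of scaling cannot alter. Surf6, a nucleolar matrix protein gene, moved most: 60.7, 61.7 and 56.3 CPM in NC, 92.9, 94.1 and 96.1 in HG and 47.0, 47.5 and 50.1 in HG-SIG. That is 0.66 in HG against NC (adjusted p = 1.6e-07) and -0.97 in HG-SIG against HG (adjusted p = 2.5e-09), larger in both comparisons than for any of the 40 members. The SSU processome helicase gene Dhx37 (0.32) and the polymerase I initiation factor subunit gene Taf1c (0.30) also rose in HG, and Zfp593 (-0.21), Nol10 (-0.18) and the polymerase I and III subunit gene Polr1d (-0.18) fell.

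After Surf6, the lowest of these genes in HG-SIG against HG were the SSU processome gene Utp11 (-0.47, adjusted p = 1.6e-06) and Nol12 (-0.46, adjusted p = 1.6e-05). The highest were Gnl3l, a relative of Gnl3 (0.25, adjusted p = 1.9e-04), the polymerase I terminator gene Ttf1 (0.24, adjusted p = 0.00349) and Las1l, an endonuclease of the internal spacer (0.18, adjusted p = 0.00429). Against NC, HG-SIG was lowest for Utp11 (-0.56), Nol7 (-0.48) and Nle1 (-0.44) and highest for Taf1c (0.37), Dhx37 (0.37) and Ttf1 (0.24). The 10 further polymerase I genes had 1 (10%) higher and 2 (20%) lower in HG-SIG against HG (median 0.04), beside 25.7% and 26.8% of all genes tested. The 43 further large-subunit genes had 3 (6.98%) higher and 27 (62.8%) lower (median -0.16 on the TMM scale and 0.00 by library totals).

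Lists of related machinery were set beside the members as a description, without a test between lists. Over all genes tested 14.3% were higher and 15.2% lower in HG, and 25.7% and 26.8% in HG-SIG against HG. Of 79 cytosolic ribosomal protein genes, 3 (3.80%) rose and 1 (1.27%) fell in HG (median -0.04), and 0 rose and 70 (88.6%) fell in HG-SIG against HG (median -0.27 on the TMM scale, -0.11 by library totals with 20 or 25.3% lower, beside 13.7% of all genes). The 78 mitochondrial ribosomal protein genes had 7 (8.97%) higher and 4 (5.13%) lower in HG, and 1 (1.28%) higher and 28 (35.9%) lower in HG-SIG against HG (median -0.12, and 0.04 by library totals). RNA polymerase II subunit genes had 2 of 12 (16.7%) higher and 1 (8.33%) lower in HG-SIG against HG (median -0.05, and 0.11 by library totals), and RNA polymerase III subunit genes 2 of 11 (18.2%) higher and 4 (36.4%) lower (median 0.00, and 0.16 by library totals).

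**Figure D4:**
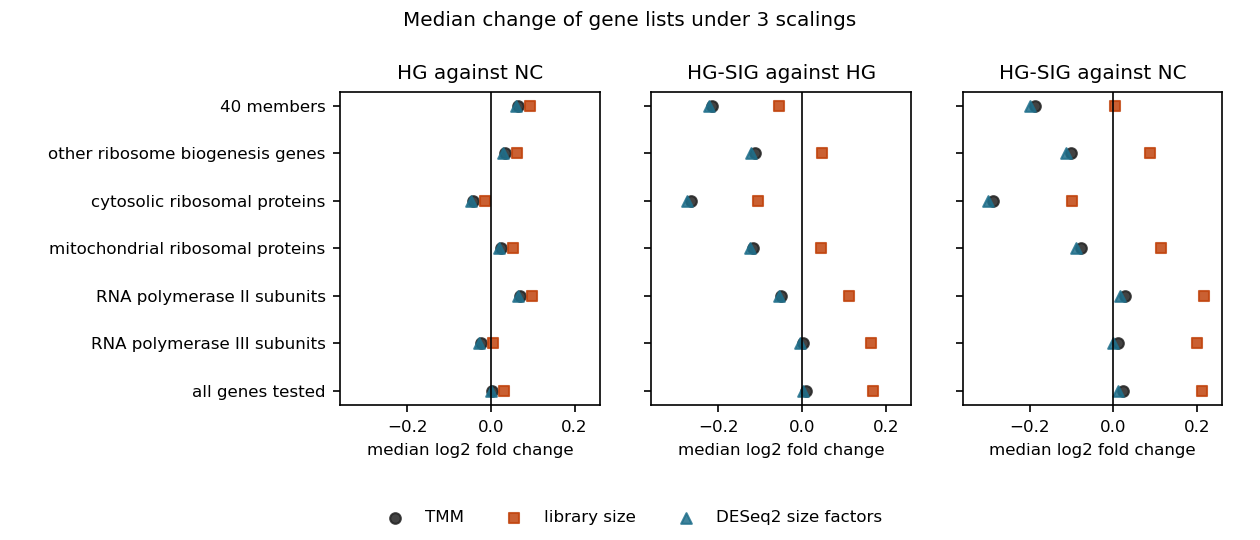
Median log2 fold change (x axis) of the 40 members, of 5 related gene lists and of all genes tested (rows) in the 3 comparisons, for counts scaled by TMM (circles), by library totals (squares) and by DESeq2 size factors (triangles). TMM and DESeq2 nearly coincide, and library totals move every list to the right in the HG-SIG comparisons by nearly the same amount. The members lie left of all genes tested there by 0.22 and 0.21, gaps that this shift cannot alter.

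Myc itself, a known activator of this pathway, had 18.6, 17.4 and 20.7 CPM in NC, 2.82, 1.84 and 3.03 in HG and 0.22, 0.32 and 0.15 in HG-SIG. Its log2 fold changes were -2.88 in HG against NC (adjusted p = 1.05e-08) and -3.46 in HG-SIG against HG (adjusted p = 7.8e-07), where the members' medians were 0.06 and -0.22. Its partner gene Max was at 117 to 139 CPM in the 9 libraries. On the TMM scale Max was called slightly lower in HG-SIG than in HG (-0.14 ± 0.05, adjusted p = 0.0296) and than in NC (-0.12 ± 0.05, adjusted p = 0.0483). Of the 9 MYC network genes tested, Myc included, 2 (22.2%) were higher and 1 (11.1%) lower in HG against NC. In all genes tested these shares were 14.3% and 15.2%. In HG-SIG against HG 4 (44.4%) were higher and 3 (33.3%) lower, beside 25.7% and 26.8%. Among the genes of MAX-binding repressors, Mxd4 rose in both comparisons (0.55 and 1.08), and Mnt rose in the first (0.13) and fell in the second (-0.55). Mxd1 (1.00), Mxd3 (0.79) and Mxi1 (0.21) rose in HG-SIG against HG, and in HG against NC, where none of the 3 was called, their values were -0.20, -0.03 and -0.03.

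MYC and MXD proteins bind with MAX to the E-box CACGTG, so this motif was searched in RefSeq promoter windows (build GRCm38.p6, the assembly of mm10; 250 bases before to 50 after the annotated start; the motif reads the same on both strands). Windows were found for 34 of the 40 members. The motif was in 6 of these (17.6%), beside 20.7% of 92 further biogenesis genes and 11.9% of 9428 tested genes with a window. These 6 were Nop2, Utp4, Utp20, Pes1, Rrn3 and Wdr43, and in Utp4, Utp20, Pes1 and Wdr43 it lay after the start. The stretches before the start are shown for the other 2 because they hold the E-box in a member that rose in HG-SIG and in one that fell; capitals mark the motif. They span chr16:13780449-13780696 and chr6:125131783-125131868, both on the plus strand.
Rrn3: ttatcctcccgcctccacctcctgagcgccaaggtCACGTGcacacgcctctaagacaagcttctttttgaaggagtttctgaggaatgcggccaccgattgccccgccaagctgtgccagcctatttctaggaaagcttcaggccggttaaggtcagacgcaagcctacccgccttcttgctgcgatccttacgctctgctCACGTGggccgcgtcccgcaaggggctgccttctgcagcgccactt
Nop2: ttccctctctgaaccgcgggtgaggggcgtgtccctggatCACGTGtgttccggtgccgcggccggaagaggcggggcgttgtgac
Rrn3 was the only member with 2 motifs, at 215 and 48 bases before the start, and Nop2 had 1, at 60 bases before it. Rrn3 was higher in HG-SIG than in HG (0.19 ± 0.05) and Nop2 lower (-0.35 ± 0.04). A match describes the letters in the window and says nothing on whether the site was bound. Of the 6 members with a match, Utp4 and Wdr43 were called higher in HG than in NC, and the others were not called. In HG-SIG against HG all of the 6 except Rrn3 were called lower on the TMM scale. Over all genes tested these shares were 14.3% and 26.8%. Dkc1, Nolc1 and Polr1b, the 3 members with the largest rises in HG, had no match in their windows. A link between the motif and these changes was not tested.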

How the data were processed

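Gene counts of 9 RAW264.7 libraries were taken as deposited by the authors, without normalization. The tools named in the submitters' processing notes are RSEM and Bowtie2 2.3.5, with build mm10. Annotation release, strand setting and any rounding: not given in the sources used here. Groups and replicate numbers come from the sample titles. Of 20627 features, 1996 had no Ensembl identifier (5.85% to 6.21% of a library's counts) and stayed in the tests. Exon lengths and coordinates came from GENCODE M21 (18591 identifiers matched).

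Genes were filtered with filterByExpr by group, scaled with TMM and fitted over all 9 libraries with edgeR 4.0.16 in R 4.3.3. The quasi-likelihood F-test was adjusted by Benjamini-Hochberg over 13311 genes, with 0.05 as threshold, and all adjusted p-values are from it unless another test is named. A standard error is the fold change divided by the square root of F. Alternatives were DESeq2 1.42.0, limma 3.58.1 on log2(TPM + 1) over 12109 genes with a length (the series' design text names limma on log2 TPM), library totals alone, features with Ensembl identifiers only, no low-count filter, a replicate block, fits of 2 groups, and leaving out each library.

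The members and gene lists were chosen with earlier results of these data known. Values in every library are given for the 2 members of each role with the largest absolute change in HG against NC and in HG-SIG against HG, and for Ncl, Npm1, Fbl, Polr1a, Polr1b, Rrn3, Ubtf, Bop1 and Bysl, with the HG and HG-SIG values also for Noc3l. Of further pathway genes, the 3 highest and 3 lowest called changes of each comparison are named, among genes whose average log2 CPM was at least 2. The fit was tested on simulated counts. A floor of 3 counts equals 0.095 to 0.129 CPM, a level every member exceeded, and covers counting error only.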

Additional observations from a re-analysis of the deposited data

How the results depend on the processing

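By library totals alone, 16 members were higher and 1 lower in HG against NC, 5 and 15 in HG-SIG against HG (median -0.0543) and 12 and 5 in HG-SIG against NC (median 0.0028, turned). With limma on log2(TPM + 1) the counts were 17 and 1, 9 and 14 (median -0.0105) and 17 and 2 (median 0.047, turned). DESeq2 gave 1 higher in HG-SIG against HG, as did the fit without the low-count filter, and 1 was lower in HG against NC without that filter and in fits of 2 groups. Leaving out each library gave 5 to 11 higher and 1 to 2 lower in HG against NC (median 0.047 to 0.084), 1 to 2 higher and 28 to 32 lower in HG-SIG against HG (median -0.23 to -0.20) and 1 to 3 higher and 21 to 27 lower in HG-SIG against NC (median -0.20 to -0.15). With a replicate block, 14 members were higher and 3 lower in HG against NC, 2 and 32 in HG-SIG against HG and 3 and 31 in HG-SIG against NC. Same-numbered libraries correlated at -0.016 to 0.072, so the numbers were not taken as pairs.

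Log2 fold changes of members whose sign turned were near 0 or fell to the scaling. By library totals they were Bysl 0.023, Rrp12 0.0094, Rrs1 0.013 and Noc3l 0.013 in HG against NC, Polr1b 0.041, Polr1c 0.16, Utp15 0.11, Rrp9 0.062, Nop14 0.11, Ddx10 0.034, Ddx18 0.065, Npm1 0.10 and Ddx21 0.052 in HG-SIG against HG, and Polr1a 0.061, Nop56 0.0031, Nop58 0.11, Dkc1 0.048, Utp4 0.12, Utp15 0.15, Noc4l 0.15, Nob1 0.018, Ddx10 0.10, Bop1 0.046, Nop16 0.087, Ddx18 0.11, Gnl3 0.0024, Ncl 0.079, Npm1 0.072 and Ddx21 0.10 in HG-SIG against NC. With limma on TPM they were Bysl 0.024, Rrp12 0.012, Rrs1 0.015 and Noc3l 0.014 in HG against NC, Polr1b 0.082, Polr1c 0.20, Nop58 0.031, Utp15 0.15, Utp20 0.0198, Rrp9 0.11, Nop14 0.16, Noc4l 0.0003, Bysl 0.013, Ddx10 0.076, Ebna1bp2 0.017, Nop16 0.015, Ddx18 0.11, Npm1 0.14 and Ddx21 0.10 in HG-SIG against HG, and Polr1a 0.10, Ubtf 0.035, Nop56 0.047, Nop58 0.15, Dkc1 0.094, Nhp2 0.0203, Utp4 0.17, Utp15 0.20, Wdr43 0.0041, Noc4l 0.19, Bysl 0.037, Nob1 0.063, Ddx10 0.15, Bop1 0.091, Wdr12 0.038, Rrs1 0.0016, Rrp1b 0.0198, Nop16 0.13, Ddx18 0.16, Gnl3 0.048, Ncl 0.12, Npm1 0.12, Nolc1 0.045 and Ddx21 0.14 in HG-SIG against NC. DESeq2 turned Nop14 (-0.0035) in HG-SIG against NC, and the replicate block Polr1c (0.0004) in HG-SIG against HG. Leaving out each library in turn gave ranges that crossed 0 for Gar1 -0.0996 to 0.0082, Nhp2 -0.0106 to 0.1121, Utp15 -0.0146 to 0.0285, Bysl -0.055 to 0.0437, Rrp12 -0.0425 to 0.021, Rrs1 -0.041 to 0.0072, Noc3l -0.036 to 0.01, Ddx18 -0.0193 to 0.0543, Ddx21 -0.0097 to 0.0434 in HG against NC; Polr1c -0.0118 to 0.0096 in HG-SIG against HG; Nop14 -0.0304 to 0.0308 in HG-SIG against NC. Other than through the scaling itself, the cause was not tested. With 3 libraries a group, changes within the spread between libraries were not detectable.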
